A study of Mus musculus with 25 samples.

Results

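MicroRNAs of small extracellular vesicles were compared between older and younger adult mouse livers, over all miRNA entries of the count table and with and without the total count of each library in the model. The comparison took 20 of the 25 libraries of the study by the age in their titles: 10 older libraries (12 months and 14 months, 5 mice each) and 10 younger ones (6 weeks and 6 months, 5 mice each). The 5 libraries of mice aged 1 week were left out. All mice were wild-type C57BL/6J from 1 supplier, fed ad libitum, with no treatment named, and each mouse gave 1 library. The labels state equal numbers of both sexes but do not give the sex of individual mice. Frozen whole liver was opened with a dissociation kit and the vesicles were spun down by ultracentrifugation, so vesicles of any cell of the organ could be collected. The batch field of the labels repeats the age, so the effects of age and of handling by age cannot be told apart.

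A miRNA is a short RNA that guides the silencing complex to messenger RNAs, which it recognises mainly through its seed, bases 2 to 8 counted from the 5′ end. Cells export part of their miRNAs in vesicles, and in liver the hepatocyte miRNA miR-122 dominates cells and vesicles alike. Among the miRNAs followed in ageing tissue, the miR-29 family represses collagens and other matrix genes, miR-34a is a target gene of p53, and miR-155 is made by activated leukocytes and macrophages.

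The sequences of the miRNAs that carried the main results are shown with the seed in capitals, from RefSeq (GRCm38.p6). The miR-29 members differ in a few bases and share their seed, miR-741-3p belongs to a cluster on the X chromosome, and miR-3065-5p and miR-338-3p are read from opposite strands of the same place.
miR-29a-3p: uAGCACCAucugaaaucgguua
miR-29b-3p: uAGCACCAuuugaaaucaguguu
miR-29c-3p: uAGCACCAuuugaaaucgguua
miR-741-3p: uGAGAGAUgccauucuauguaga
miR-3065-5p: uCAACAAAaucacugaugcugg
miR-338-3p: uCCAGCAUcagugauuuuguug
miR-184-3p: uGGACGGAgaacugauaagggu
miR-182-5p: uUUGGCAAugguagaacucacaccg

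The precursor of miR-29a lies at chr6:31062660-31062747 on the minus strand, outside any gene on that strand. That of miR-29c lies at chr1:195037547-195037634 on the plus strand, in an exon of the noncoding gene A330023F24Rik. The 2 precursors of miR-29b sit beside them, at chr6:31063023-31063093 and chr1:195037040-195037120. The precursor of miR-741 is at chrX:66796805-66796875, that of miR-184 at chr9:89802260-89802328 and that of miR-182 at chr6:30165918-30165992, each on the minus strand and in no gene of that strand. The precursor of miR-3065 (chr11:120014767-120014853, plus strand) lies within that of miR-338 (chr11:120014765-120014862, minus strand, in an intron of Aatk). The mature miR-3065-5p and miR-338-3p share 21 positions and are complementary over a run of 21 bases. How the counting treated strand is not given in the sources used here, so how reads of these 2 miRNAs were told apart is not known. The 2 entries had different fold changes, given below.

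Older libraries held more counts than younger ones. A total, called depth here, sums the counts of all entries of the table; sequenced reads were not analysed here, so a deeper sequencing run and a larger share of reads assigned to miRNAs cannot be told apart. Totals ran from 641579 counts over a median of 1107182 to 2485335 in the younger libraries and from 839642 over 2463888 to 3989776 in the older ones. The log2 total was higher by 0.876 in the older libraries (permutation test of 10 against 10, two-sided, adjusted p = 0.035 over 15 library measures). The first principal component of the 20 libraries (37.9% of the variance) followed the log2 total with r = 0.917 and rho = 0.896 (permutation p = 1e-05 each, the smallest that 100000 resamples can give). Within the 10 younger libraries r was 0.816 and rho 0.746, and within the 10 older ones 0.932 and 0.891 (permutation p between 0.00016 and 0.0177; adjusted over the 3 relations, between 0.00024 and 0.0177). Without the 2 libraries farthest from the median total, r was 0.891 over all, 0.754 in the younger and 0.916 in the older libraries. A miRNA with no count lies under a floor of 3 counts, which ranged from 0.847 to 4.62 CPM (counts per 1000000 counts of the library, with TMM factors that adjust for composition; floors cover counting error only). As a check of the liver label, miR-122-5p held 57.6% ± 2.33 of counts in the younger and 57.2% ± 2.28 in the older libraries (SD, n = 10 each; permutation adjusted p = 0.715).

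Of the 281 entries with enough counts to test, 30 were higher and 13 lower in the older vesicles when the model held only the 4 ages (10.7% and 4.63% of entries, together 15.3%; edgeR quasi-likelihood test, Benjamini-Hochberg adjusted p under 0.05 over all tested entries). With the log2 library total added to the model, 5 were higher and 1 lower (1.78% and 0.356%, together 2.14%), and all 6 were among the 43 called before. At an unadjusted p under 0.05 there were 99 entries without and 42 with the total. The change was small for most: 14 of the 43 differed by at least 2-fold, and 4 of the 6. Across all tested entries the median log2 fold change was 0.02 without and 0.01 with the total.

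The number of calls depended on the youngest adults, on the model, on the filter and on the scaling. DESeq2's Wald test called 32 higher and 25 lower without the total, and 6 higher and 5 lower with it. A fit of all 1302 entries with a count used no filter on low counts. It called 30 higher and 17 lower of the same 281 entries, and 10 higher and 1 lower with the total. Its adjusted p can differ widely from that of the filtered fit for the same entry, so the sizes of the 2 are not comparable. This unfiltered fit shared 32 of the 43 calls without and all 6 with the total; of the named miRNAs it did not call miR-10a-3p, miR-15a-5p, miR-103-3p, miR-107-3p, miR-181a-5p, miR-187-3p, miR-194-5p, miR-195a-5p, miR-222-3p and miR-338-3p. Without the 6-week libraries no entry was called in either fit (35 and 15 at an unadjusted p under 0.05; with DESeq2 also 0, and 38 and 14), over 15 libraries and not 20. With 2 groups of 10 and no term for age within them, 33 entries were called without and 0 with the total (31 at an unadjusted p under 0.05 with it; DESeq2 called 47 and 1). Scaling by library totals alone lowered the median of all entries to -0.11 and gave 10 higher and 19 lower calls, against 20 higher and 13 lower with DESeq2 size factors in edgeR. Of the 30 higher calls 10 were kept with library totals alone, and of the 13 lower calls all 13 were. The direction among abundant miRNAs changed as well: all 25 calls at a mean of 50 CPM or more were higher, but a fit of only the 129 entries at that level called 7 higher and 12 lower.

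**Figure D1:**
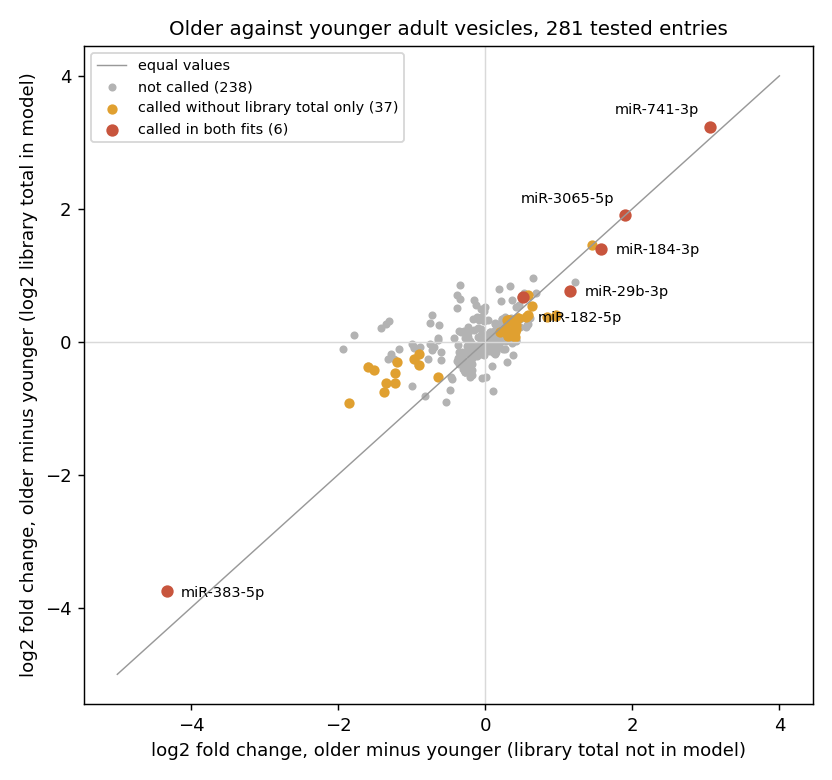
Log2 fold change of the 281 tested entries, older minus younger, without library total in the model (horizontal axis) and with log2 library total (vertical axis). The 6 entries called in both fits (red) keep their sign in both; miR-29b-3p (1.16 to 0.76) and miR-383-5p (-4.33 to -3.75) move toward 0. In all, 36 of the 43 called entries are nearer 0 on the vertical axis than on the horizontal one.

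Among the calls the largest rise was that of miR-741-3p, from the X-linked Fmr1-Slitrk2 cluster, whose miRNAs are known mainly from testis. Its level ran from 0 CPM over a median of 6.00 to 14.6 in the younger libraries and from 12.6 over 24.2 to 83.2 in the older ones. No count was found in 3 of the 6-week libraries, and 8 of 10 older libraries lay above every younger one. The mean climbed from 1.17 CPM (6 weeks) to 10.7 (6 months), and was 41.3 at the age of 12 months and 23.4 at that of 14 months (n = 5 each). The 6-week mean lay under the floors of that age (1.55 to 4.62 CPM), so the size of the change depends on few counts. The log2 fold change was 3.06 ± 0.46 (SE; edgeR adjusted p = 0.000115), and 3.23 ± 0.54 with the total (adjusted p = 0.00111). Without mouse 9, the 6-week mouse that holds 6 of the 7 counts of its age, it was 4.10, and without the whole 6-week age 1.52 (adjusted p = 0.332).

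The largest fall among the calls was that of miR-383-5p, a miRNA known from gonads. It had 183 counts over the younger and 9 over the older libraries, 5 of which had none and none of which had more than 3. In CPM the younger libraries ran from 0.833 over 5.12 to 58.3 and the older ones from 0 over 0.191 to 1.26. The high values were those of 6 weeks, with a mean of 34.9 CPM against 2.33 at 6 months, and 8 older libraries lay under every younger one. The log2 fold change was -4.33 ± 0.58 (edgeR adjusted p = 3.15e-05), and -3.75 ± 0.74 with the total (adjusted p = 0.00328). Older values and the lowest younger one were at or under the floor, and the 6-month mean lay within the floors of that age (1.41 to 2.59 CPM). These sizes and the separation of libraries thus depend on few counts. Without the 6-week age the miRNA had too few counts to be tested.

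miR-29b-3p gave the smallest adjusted p of the 281 entries in both fits. Its level ran from 843 over 1626 to 2535 CPM in the younger libraries and from 2174 over 3286 to 4826 in the older ones. Again 8 older libraries lay above every younger one. The means by age, youngest first, were 1009, 2155, 3161 and 3412 CPM. The log2 fold change was 1.16 ± 0.13 (edgeR adjusted p = 6.9e-06) and fell to 0.76 ± 0.11 with the total (adjusted p = 0.000109). Without the 6-week age it was 0.59 (adjusted p = 0.332), and 0.30 with the total (adjusted p = 0.711).

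miR-3065-5p and miR-184-3p were scarce in the youngest adults and higher in mean at the other 3 ages. miR-3065-5p ran from 0 over 2.94 to 10.8 CPM in the younger and from 4.30 over 11.1 to 15.0 CPM in the older libraries. The mean was 1.09 CPM at 6 weeks, under the floors of that age (1.55 to 4.62 CPM), against 7.21 at 6 months. For miR-3065-5p the size of the change thus depends on few counts. Its log2 fold change was 1.90 ± 0.30 (edgeR adjusted p = 0.000196), and 1.91 ± 0.37 with the total (adjusted p = 0.00328). Its partner on the other strand, miR-338-3p, a miRNA of the Aatk gene, rose by 0.41 ± 0.13 (adjusted p = 0.039) and was not called with the total (0.14, adjusted p = 0.706).

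For miR-184-3p, known from cornea and other epithelia, the younger libraries ran from 0 over 5.26 to 13.1 CPM and the older ones from 7.08 over 14.0 to 18.9. The 6-week mean was 1.69 CPM, within the floors of that age (1.55 to 4.62 CPM), against 9.94, 12.2 and 13.6 CPM at the later ages. The size of the change thus depends on few counts. The log2 fold change was 1.58 ± 0.31 (edgeR adjusted p = 0.00296), and 1.40 ± 0.37 with the total (adjusted p = 0.0441). That last call was lost on leaving out any of 16 of the 20 libraries. Without the 6-week age the changes of miR-3065-5p and miR-184-3p were 0.54 and 0.36 (adjusted p = 0.423 and 0.556).

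miR-182-5p, of the cluster it forms with miR-183 and miR-96 in sensory cells and epithelia, did not have its low values at 6 weeks. It ran from 50.6 over 71.6 to 86.3 CPM in the younger and from 57.8 over 99.8 to 139 CPM in the older libraries, 8 of which lay above every younger one. The means by age, youngest first, were 72.4, 67.5, 85.0 and 118 CPM. The log2 fold change was 0.51 ± 0.13 (edgeR adjusted p = 0.0144), and 0.67 ± 0.16 with the total (adjusted p = 0.0168). Without the 6-week age it was 0.55 but did not pass (adjusted p = 0.332), and without the 14-month age it was 0.26 (adjusted p = 0.329). It was 0.38 with library totals alone (adjusted p = 0.0726). The call with the total was lost without any of 6 single libraries: 6 weeks mouse 10, 12 months mice 16 and 17, and 14 months mice 22, 24 and 25. Its neighbours miR-183-5p and miR-96-5p had log2 fold changes of 0.36 and 0.69 and did not pass (adjusted p = 0.234 and 0.0542); the unfiltered fit called miR-96-5p higher (adjusted p = 0.0256), but not with the total (adjusted p = 0.158).

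**Figure D2:**
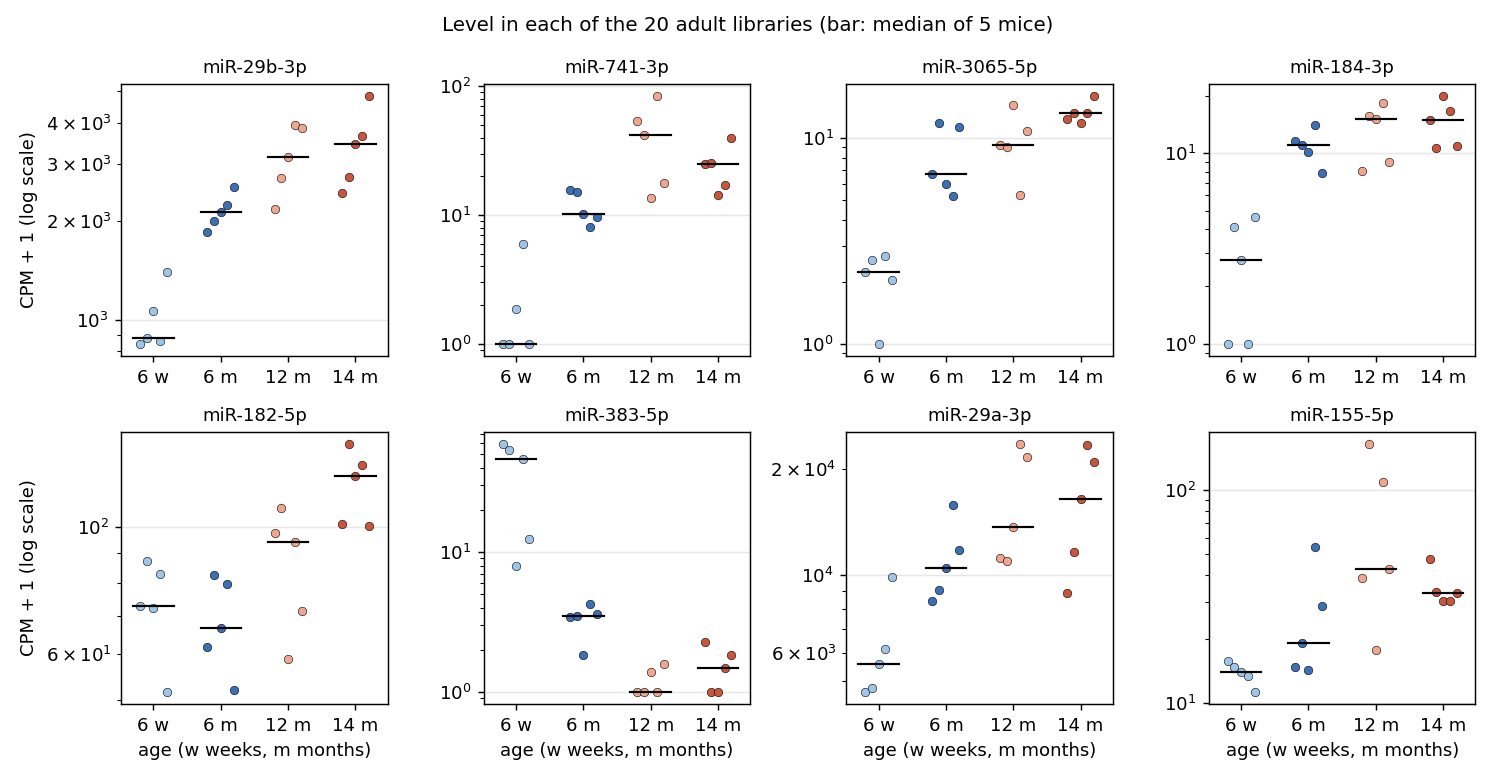
Level of 8 miRNAs in each of the 20 adult libraries (CPM + 1, log scale) at 6 weeks, 6 months (both younger, blue), 12 months and 14 months (both older, red), with a bar at the median of 5 mice. For miR-3065-5p, miR-184-3p and miR-383-5p the 6-week libraries lie apart from the rest, while miR-182-5p is highest at 14 months, with a mean of 118 CPM.

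At equal age, many miRNAs moved with the depth of the library. The coefficient of the log2 total passed for 85 of 281 entries, 30 higher and 55 lower in deeper libraries (10.7% and 19.6%, together 30.2%). Of the 30 entries higher in the older vesicles, 10 also rose with the total at equal age, and of the 13 lower entries 10 also fell with it. With the total in the model all 43 called entries kept their sign, 36 became smaller, and 17 shrank to under 50% of their log2 fold change. The median fell from 0.43 to 0.35 for the higher calls and moved from -1.23 to -0.47 for the lower ones. The higher calls were abundant miRNAs (median 238 CPM) and the lower ones scarce (median 11.1 CPM), against 33.5 CPM for all tested entries.

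The other members of the miR-29 family show this overlap of age and depth. miR-29a-3p and miR-29c-3p had nearly equal counts in every library, so they are not independent results. miR-29a-3p ran from 4657 over 8748 to 15760 CPM in the younger libraries and from 8893 over 15020 to 23480 CPM in the older ones. All 10 older libraries lay above the younger median and 5 above every younger library. Its log2 fold change of 0.96 ± 0.20 (edgeR adjusted p = 0.00296) fell to 0.39 ± 0.14 with the total (adjusted p = 0.133). The unfiltered fit gave nearly the same size with the total for miR-29a-3p and miR-29c-3p and called both (0.38 each, adjusted p = 0.0105 and 0.00729). At equal age miR-29a-3p rose by 0.63 ± 0.10 log2 units for each doubling of the library total (adjusted p = 0.000132), and miR-29b-3p by 0.42 ± 0.07 (adjusted p = 0.000666). The 2 tested passenger strands did not follow: miR-29a-5p and miR-29c-5p had log2 fold changes of 0.11 ± 0.28 and -0.06 ± 0.15 (adjusted p = 0.812 and 0.817). All 3 tested miRNAs with the seed AGCACCA were called higher, and all 3 were kept with library totals alone.

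**Figure D3:**
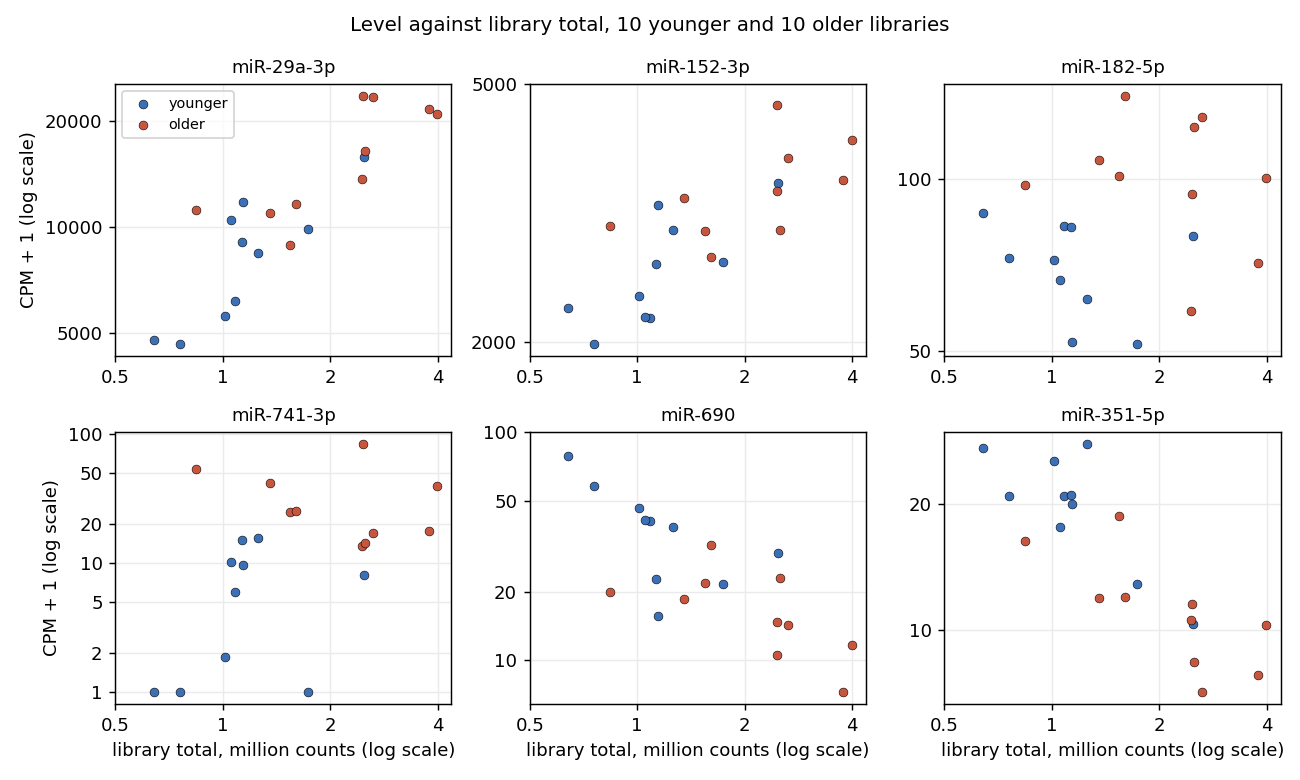
Level of 6 miRNAs (CPM + 1, log scale) against library total (counts, log scale) in 10 younger (blue) and 10 older (red) libraries. miR-29a-3p and miR-152-3p climb and miR-690 and miR-351-5p decline with the total within each group of ages, while 8 of the 10 older libraries lie above every younger one for miR-741-3p, at totals from 839642 to 3989776 counts. The other 2, at 12.6 and 13.4 CPM, lie within the younger range.

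In the range of totals that both groups share, from 839642 to 2485335 counts, 8 younger and 6 older libraries remained (3, 5, 4 and 2 from the youngest to the oldest age). There 7 entries were called without and 7 with the total, of which 5 and 4 were among those of all 20 libraries. With every library thinned to 641579 counts, 201 entries could be tested, and 15 were called without and 4 with the total.

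Of 6 tested leukocyte markers 3 rose, none fell and 3 did not pass, where 10.7% of all tested entries rose. None was called with the total, at a median log2 fold change of 0.39 without and 0.43 with it. miR-155-5p ran from 10.3 over 13.8 to 52.95 CPM in the younger and from 16.8 over 35.01 to 164 CPM in the older libraries, and all 10 older libraries lay above the younger median. It rose by 1.46 ± 0.34 (edgeR adjusted p = 0.00838) and had the same size with the total (1.46 ± 0.41, adjusted p = 0.0565). Its highest age was 12 months, with a mean of 73.7 CPM against 33.9 at 14 months, and without the 12-month age it was 0.88 (adjusted p = 0.0754).

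miR-142a-5p, a miRNA of all blood lineages, rose by 0.64 ± 0.16 (edgeR adjusted p = 0.0124), and miR-150-5p, of mature lymphocytes, by 0.58 ± 0.18 (adjusted p = 0.0374). In the unfiltered fit both were called higher with the total as well (adjusted p = 0.0362 for miR-142a-5p and 0.00177 for miR-150-5p). The more abundant arm miR-142a-3p and the myeloid miR-223-3p did not pass, at 0.19 ± 0.15 and 0.18 ± 0.14 (adjusted p = 0.407 each). With library totals alone miR-150-5p was no longer called, and miR-155-5p and miR-142a-5p were. The summed leukocyte level ran from 2187 over 2510 to 3047 CPM in the younger and from 2165 over 2949 to 5522 CPM in the older libraries (permutation adjusted p = 0.0902). In vesicles of a whole organ, more cells of a type and more RNA per cell cannot be told apart. The part of leukocyte content in any other result was not tested.

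Of 9 tested markers of stellate cells and smooth muscle 5 rose, by small amounts, and none fell, against 10.7% of all tested entries higher; none was called with the total. All 9 had a positive log2 fold change, with a median of 0.37 without and 0.33 with the total; 146 of all 281 entries were positive. The 5 are miR-145a-5p and both arms of the 2 entries miR-199a and miR-199b, whose counts were nearly equal, so they stand for 3 distinct results. miR-199a-3p, encoded in Dnm3os on chromosome 1 and again on chromosome 9, ran from 929 over 1079 to 1292 CPM in the younger and from 1112 over 1333 to 1819 CPM in the older libraries. It rose by 0.33 ± 0.09 (edgeR adjusted p = 0.0202) and kept this size with the total (0.33 ± 0.11, adjusted p = 0.118). miR-145a-5p rose by 0.40 ± 0.10 (adjusted p = 0.0124), and the abundant miR-143-3p did not pass (0.17 ± 0.09, adjusted p = 0.189). None of the 5 was called with library totals alone. The summed level averaged 7533 ± 609 CPM in the younger and 8919 ± 1403 CPM in the older libraries (SD, n = 10, permutation adjusted p = 0.035). It was highest at 12 months, with 9561 ± 1567. Sums carry the TMM factors, and a lower factor raises the CPM. The factors ran from 0.859 to 1.142 in the younger and from 0.802 to 1.076 in the older libraries. The sums were not tested with library totals alone or with the total in the model.

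Of 12 tested hepatocyte entries 1 rose and none fell, a share near the 10.7% of all tested entries. The 1 was miR-194-5p, co-transcribed with miR-192, which went from 7951 ± 1237 to 9072 ± 677 CPM (log2 fold change 0.20 ± 0.06, edgeR adjusted p = 0.0337). Without the 6-week age its value was -0.0033, and the unfiltered fit did not call it. miR-122-5p, miR-148a-3p and miR-192-5p had log2 fold changes of 0.13 ± 0.07, 0.11 ± 0.11 and 0.09 ± 0.07 (adjusted p = 0.234, 0.483 and 0.444). The liver miRNA miR-802-5p had 394 CPM on average in the younger and 607 in the older libraries and did not pass (0.61 ± 0.24, adjusted p = 0.0773).

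No member of the erythroid (0 of 5), endothelial (0 of 2) or biliary and other epithelial (0 of 5) lists was called in either fit. Over all tested entries 15.3% were called without and 2.14% with the total, so lists this short cannot show an absence of change. The erythroid miR-451a, the miRNA of red cells, had 213 CPM in the younger and 156 in the older libraries (-0.46 ± 0.23, edgeR adjusted p = 0.158). The endothelial miR-126a-3p stood at -0.14 ± 0.09 (adjusted p = 0.267). Of 4 tested neural and neuroendocrine entries 1 rose, against 10.7% of all tested entries. This was miR-137-3p, by 0.85 ± 0.22 (edgeR adjusted p = 0.0144) from a younger median of 103 CPM to an older one of 160. With the total it was 0.37 (adjusted p = 0.473), and at equal age it rose with depth (0.55 for each doubling, adjusted p = 0.0101). The summed neural list was higher in the older libraries, at 828 ± 61.8 against 723 ± 91.9 CPM (permutation adjusted p = 0.035). It too carries the TMM factors and was not tested with library totals alone. Most of this sum is miR-7a-5p and miR-7b-5p (322 and 300 CPM on average), whose counts were nearly equal. Reads of this pair may thus be counted more than once. Neither was called, at log2 fold changes of 0.06 and 0.07. Striated muscle entries, none of which could be tested singly, summed to 9.64 ± 1.02 against 6.99 ± 2.98 CPM (permutation adjusted p = 0.035), on the same TMM scaling. Pancreas markers summed to under 3 CPM in every library.

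Among miRNAs linked to lipid and cholesterol metabolism, 5 of 21 tested entries rose, none fell and 16 did not pass, against 10.7% higher of all tested entries, and with the total 1 was called, against 1.78%. Their median stood at 0.13 without and 0.00 with the total, in log2 units. The 5 were miR-29a-3p, miR-182-5p, miR-34a-5p and the pair miR-103-3p and miR-107-3p, which share the seed GCAGCAU, have nearly equal counts and lie in introns of the pantothenate kinase genes. miR-34a-5p, which represses Sirt1, ran from 282 over 397 to 639 CPM in the younger and from 371 over 569 to 942 CPM in the older libraries. It rose by 0.56 ± 0.19 (edgeR adjusted p = 0.0479) and did not pass with the total (0.38 ± 0.23, adjusted p = 0.5). miR-103-3p rose by 0.32 ± 0.10 (adjusted p = 0.039), and by 0.08 with the total (adjusted p = 0.767), which was not a call. The sterol-regulated miR-33-5p, which represses Abca1, was at 5.38 and 6.01 CPM (0.13 ± 0.35, adjusted p = 0.817), and miR-27b-3p stood at 0.00 ± 0.07 (adjusted p = 0.991). With library totals alone 1 of the 5 was kept, miR-29a-3p.

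Of 17 tested miRNAs on the ageing and senescence list 6 rose and 1 fell, where 10.7% of all tested entries were higher and 4.63% lower. With the total 1 of the 6 was called, miR-29b-3p, where 1.78% of all tested entries were higher. The 6 were miR-155-5p, miR-34a-5p, miR-195a-5p and the 3 miR-29 miRNAs, and the 1 was miR-181a-5p, which sets the signalling threshold of T cells. miR-181a-5p fell from 17.9 ± 4.95 to 11.3 ± 2.86 CPM (log2 fold change -0.65 ± 0.19, edgeR adjusted p = 0.0263; with the total -0.53, adjusted p = 0.26). The inflammation miRNAs miR-146a-5p and miR-146b-5p were at 0.58 ± 0.26 and 0.56 ± 0.22 and did not pass (adjusted p = 0.112 and 0.0773). The unfiltered fit called 7 tested members of the list higher, miR-146b-5p among them (adjusted p = 0.00504), and none lower. It called 30 higher and 17 lower of all 281 tested entries. With the total it called 4 members higher, against 10 of the 281 entries. Of these 4 members 3 were the miR-29 miRNAs, and the counts of miR-29a-3p and miR-29c-3p were nearly equal. The abundant miR-21a-5p was at 0.17 ± 0.20 (adjusted p = 0.568).

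For the large families of liver the calls depended on the filter. None of 14 tested let-7 and miR-98 entries was called, and their median log2 fold change of 0.13 became 0.00 with the total. In the unfiltered fit let-7b-5p (0.37 ± 0.09, adjusted p = 0.00251), let-7c-5p (0.30 ± 0.09, adjusted p = 0.0199) and, of the miR-30 family, miR-30b-5p (0.47 ± 0.14, adjusted p = 0.0317) were called higher without the total and not with it (adjusted p = 1 each). None of 9 miR-30, 5 miR-23, miR-27 and miR-24, 12 miR-17-92 or 14 Dlk1-Dio3 entries was called in either filtered fit. Dlk1-Dio3 is an imprinted cluster of 90 entries in the table. Of all tested entries 15.3% were called without and 2.14% with the total, so none of these short lists can show an absence of change. The entries of the H19 and Igf2 loci had too few counts to test. miR-222-3p rose by 0.35 ± 0.10 (edgeR adjusted p = 0.0254), and its cluster partner miR-221-3p stood at 0.23 ± 0.09 (adjusted p = 0.0958). The 6-week mean of miR-222-3p was 58.1 CPM against 105 at 6 months, and without the 6-week age its value was -0.10.

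**Figure D4:**
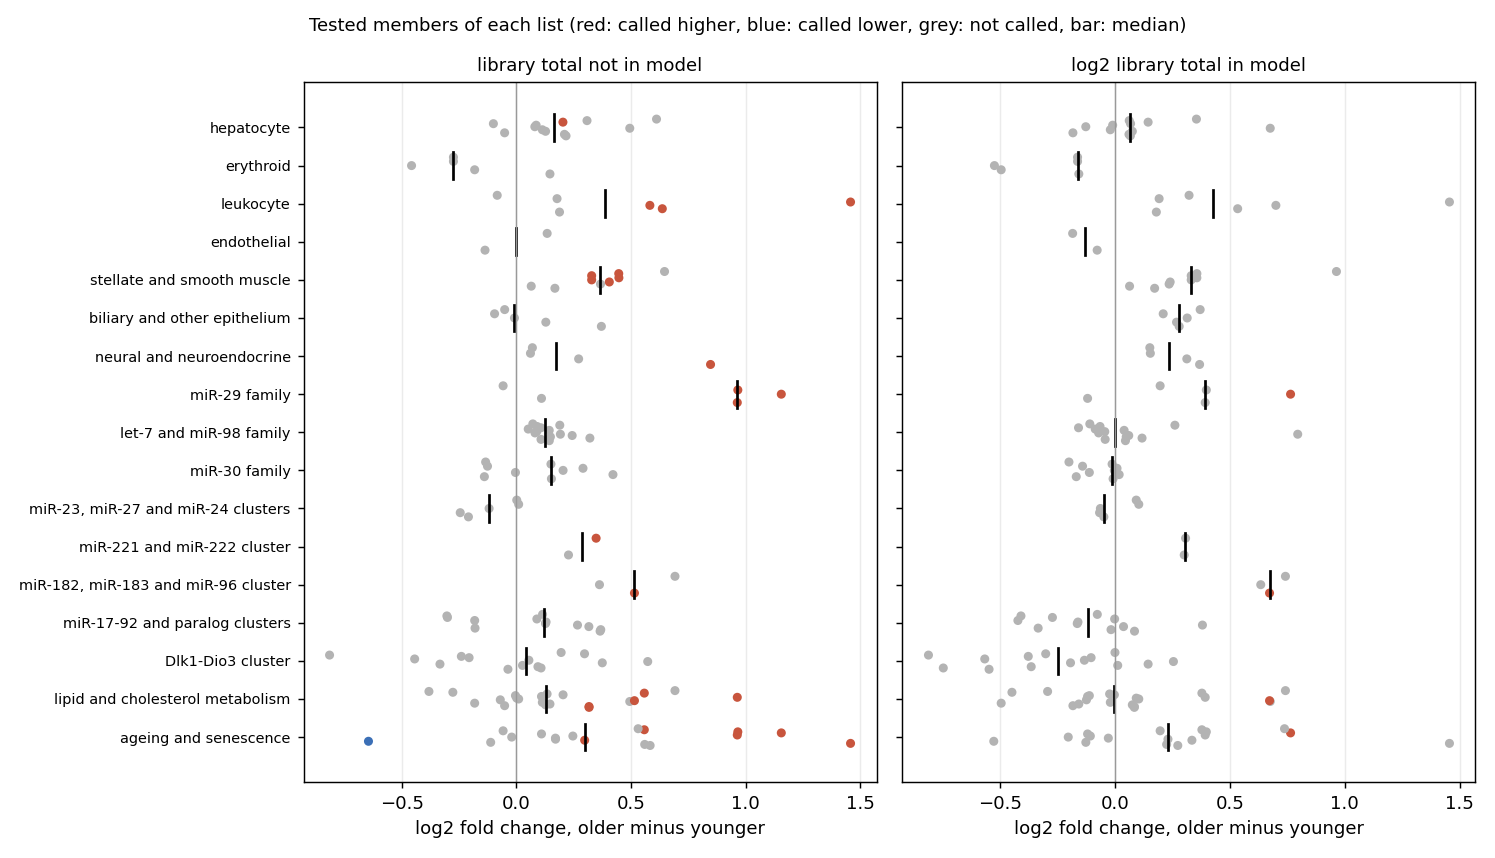
Log2 fold change, older minus younger, of the tested members of each list without (left) and with log2 library total in the model (right), with entries called higher in red, called lower in blue, not called in grey and a bar at the median. The let-7 and miR-98 median moves from 0.13 to 0.00 and the stellate and smooth muscle median from 0.37 to 0.33.

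The remaining higher calls were common miRNAs with modest changes. miR-152-3p, in an intron of Copz2, ran from 1983 over 2494 to 3512 CPM in the younger and from 2699 over 3369 to 4631 CPM in the older libraries. It rose by 0.42 ± 0.10 (edgeR adjusted p = 0.0114) and was not called with the total (0.20, adjusted p = 0.361). It was the only one of 3 tested miRNAs with the seed CAGUGCA to be called, the others being miR-148a-3p and miR-148b-3p. miR-26b-5p, in an intron of Ctdsp1 and the fifth most abundant entry, went from 25560 ± 4925 to 32400 ± 5519 CPM (0.35 ± 0.11, adjusted p = 0.0337; with the total 0.12, adjusted p = 0.667). Of 6 tested miRNAs with the seed AGCAGCA, the growth-restraining miR-15 and miR-16 group, miR-15a-5p and miR-195a-5p rose, by 0.29 ± 0.09 and 0.30 ± 0.09 (adjusted p = 0.0337 and 0.0328).

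The X-linked cluster that holds miR-741-3p was described as a whole, as 31 of its 32 entries were too scarce to be tested singly. Scarcity was not particular to it: of 90 Dlk1-Dio3 entries 14 were tested. The cluster was taken up after values of its members were seen. Its sum, detection counts and unfiltered calls are thus a description and no independent support. Its 20 precursors lie on the minus strand between chrX:66776757 and chrX:67988451 (GRCm38.p6), those of miR-201 and miR-547 apart from the rest at the far end. The 32 hold 28 distinct sets of counts, of which 27 had more counts, relative to depth, in the older libraries and 27 had counts in more older than younger libraries. Among all 1021 untested entries with an adult count those shares were 38.4% and 46.6%. Some entries share their reads: miR-465a-3p, miR-465b-3p and miR-465c-3p have 101 counts each and the same sequence, and miR-465b-5p and miR-465c-5p have 21 counts each. The mature sequences of 3 of the fullest entries are shown with the seed in capitals.
miR-743a-3p: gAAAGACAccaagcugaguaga
miR-871-3p: uGACUGGCaccauucuggauaau
miR-465a-3p: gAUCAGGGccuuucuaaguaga

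The summed level of the cluster did not overlap between the groups. It ran from 1.54 over 16.0 to 34.8 CPM in the younger and from 44.4 over 61.9 to 196 CPM in the older libraries. Without miR-741-3p it still ran from 1.54 over 9.12 to 20.3 CPM against 25.2 over 41.9 to 113 CPM. No single tested entry of the 281 (0%) separated all older from all younger libraries in either direction, but single entries are unlike a sum. The sums of all the other lists overlapped between the groups. That of the miR-29 family, for example, reached 33940 CPM in the younger libraries and began at 20420 CPM in the older ones. For the X-linked cluster the 6-month libraries alone, from 18.7 to 34.8 CPM, also lay under every older library. The counts behind the sums were small, from 1 to 43 in the younger and from 77 to 411 in the older libraries. The sum counts shared reads more than once, and older libraries hold more counts. With entries of identical counts taken once, it ran from 1.54 over 14.8 to 33.2 CPM in the younger and from 39.4 over 52.9 to 177 CPM in the older libraries. In the least deep older library, with 839642 counts, the cluster held 98 counts, and in the deepest younger one, with 2485335 counts, it held 40.

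**Figure D5:**
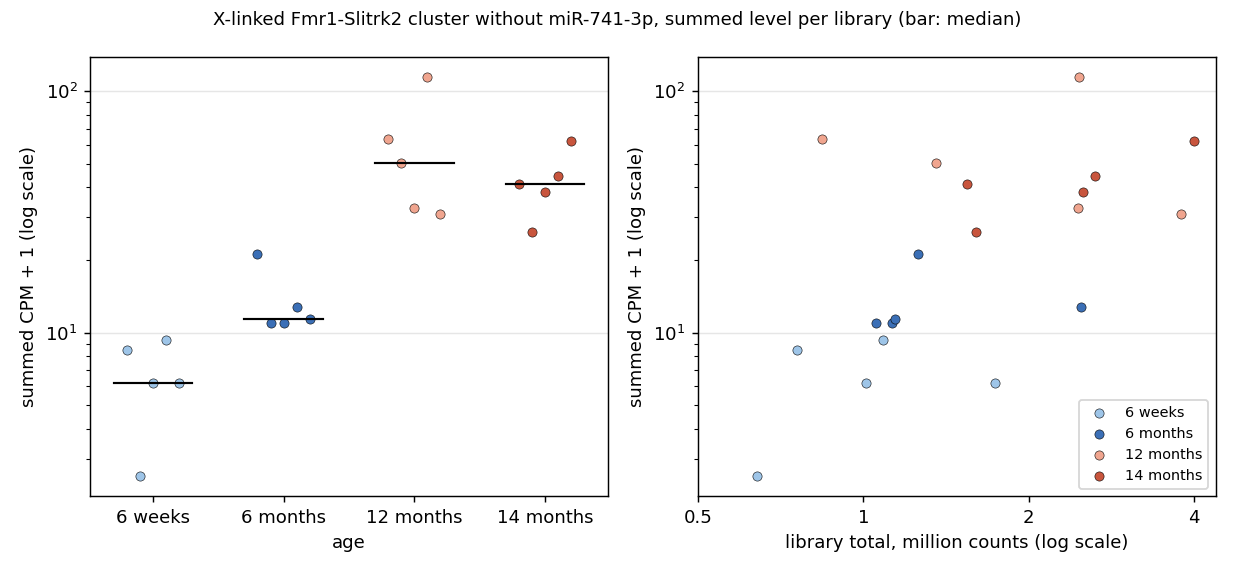
Summed level of the X-linked Fmr1-Slitrk2 cluster without miR-741-3p (CPM + 1, log scale) by age with a bar at the median (left) and against library total (counts, log scale, right). All 10 older libraries (25.2 to 113 CPM) lie above all 10 younger ones (1.54 to 20.3 CPM), at low totals as well as high.

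Several members can be read one by one from their counts. miR-743a-3p had 10 counts in 5 younger libraries and 182 counts in all 10 older ones, or 0.813 against 7.85 raw CPM (summed counts over summed library totals, without TMM factors). miR-871-3p had 4 counts in 2 younger and 88 counts in 10 older libraries, or 0.325 against 3.80 raw CPM. miR-465a-3p had 5 counts in 4 younger and 96 counts in 10 older libraries. miR-547-3p, at the far end of the cluster, was seen in 9 younger and 10 older libraries, at 3.98 against 4.92 raw CPM, and miR-201-3p was the 1 member lower in the older group (0.488 against 0.345).

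In the unfiltered fit of 1302 entries 46 (3.53%) were called higher without and 17 (1.31%) with the total. Of the cluster entries 15 were called higher without and 7 with the total, and none lower; with entries of identical counts taken once, 12 of 28 and 5 of 28. Among the higher calls that the filter had kept out, 11 of 13 distinct ones belonged to this cluster without and 4 of 5 with the total. In that fit the adjusted p of miR-743a-3p was 1.86e-11 without and 1.58e-08 with the total, that of miR-871-3p 7.61e-07 and 6.2e-08, and that of miR-465a-3p 1.02e-06 and 1.1e-05 (edgeR). The fitted folds rest on ages with hardly any count and are not given. These adjusted p rest on the same few counts. They are also not comparable in size with those of the filtered fit. Without the total, miR-741-3p had a far smaller adjusted p in the unfiltered fit (edgeR, 1.87e-18) than in the filtered one, and miR-351-5p a larger one (0.0428). Sex is not given for each mouse, so its part in the level of an X-linked cluster was not tested.

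The 13 lower calls were scarce entries (DESeq2 called 25 lower), and 6 of them are unconservative, a class of entry that the labels do not explain. None of the 30 higher calls is, where 31 of all 281 tested entries are. miR-690 ran from 14.7 over 38.5 to 77.1 CPM in the younger and from 6.24 over 15.6 to 31.0 CPM in the older libraries, all 10 of which lay under the younger median. It fell by 1.22 on the log2 scale (SE 0.27, edgeR adjusted p = 0.00512), and the value with the total was -0.61 ± 0.25 (adjusted p = 0.216). At equal age miR-690 fell by 0.72 log2 units for each doubling of the total (adjusted p = 0.00671). miR-351-5p, an X-linked relative of miR-125 with the same seed CCCUGAG, fell from 19.4 ± 5.68 to 10.5 ± 3.64 CPM (-0.90 ± 0.23, adjusted p = 0.0142; with the total -0.35, adjusted p = 0.53). Neither miR-125a-5p nor miR-125b-5p was called.

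miR-3473b and miR-3473e, with the same seed, were lower by -0.97 ± 0.31 and -1.23 ± 0.35 (edgeR adjusted p = 0.039 and 0.024), and both were lower in deeper libraries at equal age. Their sequences differ only near the 3′ end, and both entries are at 5 to 16 CPM on average in each group.
miR-3473b: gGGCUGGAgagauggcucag
miR-3473e: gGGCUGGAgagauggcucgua

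The unconservative entries as a class held 0.137% ± 0.0959 of counts in the younger and 0.0608% ± 0.0412 in the older libraries (SD, n = 10; permutation adjusted p = 0.0441). The number of different entries was also compared. After thinning to 641579 counts, 548 ± 31.5 entries had a count in the younger and 496 ± 40.0 in the older libraries (permutation adjusted p = 0.035), while without thinning it was 635 ± 38.4 and 671 ± 35.7 (permutation adjusted p = 0.0902).

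The called miRNAs also differed in base composition. Of 250 named tested miRNAs 215 (86%) had a RefSeq sequence, with a median GC content of 45.5%. It was 40.9% for the 26 higher calls with a sequence and 61.4% for the 6 lower ones. Across these 215 miRNAs, which share libraries and are not replicates, the correlation of GC content with the log2 fold change was -0.32 without and -0.090 with the total. The correlation of GC content with the change per doubling of the total was -0.38. The part of base composition in the calls was not tested.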

How the data were processed

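The authors deposited 1 table of raw counts for 1493 entries (1095 named mature miRNAs and 398 unconservative entries) in 25 libraries. Per the labels, QIAseq libraries were read as paired ends on a NovaSeq, and the submitters' processing notes name Bowtie, edgeR and mm10. Versions, the miRNA annotation, strand, allowed mismatches and whether reads or unique molecular identifiers were counted are not given in the sources used here, so a floor covers the error of counting alone.

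The 20 adult libraries were grouped by the age in their titles. Of 1302 entries with a count, 281 passed filterByExpr by age (250 named), and the 1021 others held 0.0648% of counts. edgeR 4.0.16 (R 4.3.3, TMM factors, robust quasi-likelihood fit; biological coefficient of variation 30.2%) fitted 4 ages with or without the centred log2 library total, leaving 16 or 15 residual degrees of freedom. The contrast was the mean of 12 and 14 months minus that of 6 weeks and 6 months, with a Benjamini-Hochberg threshold of 0.05. Each SE was derived from the log2 fold change and its F statistic (size divided by root F) and is approximate for scarce entries. CPM were computed from the counts with TMM factors; group sums above the raw share follow from this scaling. Library measures were compared by permutation (scipy 1.17.1, 100000 resamples, two-sided). DESeq2 1.42.0, other scalings and filters, thinning and left-out libraries and ages were the alternatives. The scripts were tested on simulated data.

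Among 40 pairs of libraries of 1 age none agreed within sampling noise (smallest chi-squared per degree of freedom 12.1). In 21 pairs of entries, covering 39, the counts of 2 miRNAs lay within 0.3 log2 units in every library at a mean of at least 20, and 4 such pairs hold 8 of the calls. Precursor positions and sequences come from RefSeq for GRCm38.p6, the assembly of mm10, and host genes from GENCODE.

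Named are up to 12 rises and 12 falls of the largest change at 50 CPM or more, every call with the total, up to 3 tested members per list by abundance and the 5 entries with the highest CPM. The other calls, members of the X-linked cluster and the uncalled let-7b-5p, miR-30b-5p, miR-29a-5p, miR-29c-5p, miR-802-5p, miR-33-5p, miR-146a-5p, miR-146b-5p, miR-125a-5p, miR-125b-5p and miR-148b-3p were added after their values were seen. The comparison and all lists were chosen with earlier results of these data known.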

Additional observations from a re-analysis of the deposited data

Results flagged for a closer look

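In each age group of 5 libraries, the highest or lowest value was marked when its gap to the next was over 0.71 of the whole range (Dixon's criterion). Of 192 groups checked, 13 were marked; chance marks about 1 in 20. No cause was tested.

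Among miRNAs called higher, 12 months mouse 19 had 138.2 CPM of miR-10a-3p, against a median of 103.5 in the other 4 libraries of its age. 14 months mouse 25 had 729.5 CPM of miR-145a-5p (others 465.8) and 14 months mouse 21 had 46.68 CPM of miR-155-5p (others 30.6). At 6 weeks, mouse 6 was low for miR-15a-5p with 293.9 CPM (others 392.9), mouse 10 high for miR-29c-3p with 9901 CPM (others 5211), and mouse 9 held 4.967 CPM of miR-741-3p, where the others had a median of 0. miR-222-3p was low in 12 months mouse 17 (78.66 CPM, others 103.9) and in 6 months mouse 13 (72.44 CPM, others 112.8).

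Among entries called lower, 12 months mouse 16, the least deep of the older libraries, was high for miR-3473b (23.6 CPM, others 6.499) and miR-3473e (15.34 CPM, others 3.13). 6 months mouse 12 had 21.59 CPM of miR-3473e (others 9.312), and 14 months mouse 21 had 6.308 CPM of an unconservative entry (others 2.732). 6 months mouse 14 had the largest total of its age, 2485335 counts.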

How the results depend on the processing

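No paired analysis was possible because no mouse number occurs at more than 1 age. Counts of calls are given without and then with the library total, against 43 and 6. They were 69 and 18 with no filter, 19 at 50 CPM or more, 25 without unconservative entries, 22 with all 25 libraries, 15 after thinning and 7 in the shared range of totals. DESeq2 called 57 (32 higher and 25 lower) and 11. On 2 groups of 10 edgeR called 33 and 0, and DESeq2 47 and 1. Without 6 weeks both fits and both tools called 0; without 12 months 8 and 3; without 14 months 26 and 3; without 6 months 25 with the total. miR-194-5p and miR-222-3p turned to -0.0033 and -0.099 without 6 weeks (-0.0035 and -0.097 with DESeq2). Leaving out 1 library gave 21 to 60 and 4 to 10 calls. The count fell to 28 or fewer without mice 6, 7, 8 or 9 (6 weeks), 11, 12 or 13 (6 months), 19 or 20 (12 months), 24 or 25 (14 months), and rose to 10 with the total without mouse 7. Of the 43 calls 16 were kept without each single library, and of the 6 with the total 4 were. miR-383-5p was kept without the total in every alternative that could test it, and was too scarce to test without 6 weeks, 12 or 14 months, after thinning and at 50 CPM. The depth coefficient had 57 to 100 calls without 1 library, and 73, 82 and 117 under library totals, DESeq2 size factors and no filter. The cause of these changes was not tested; fewer libraries also give less power.

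Of the library measures, with differences older minus younger, the log2 total no longer passed without 6 weeks (0.656), 12 months (1.01) or 14 months (0.743). Nor did entries after thinning (-50.9, -56.1, -48.7), the unconservative percentage (-0.0485, -0.0833, -0.0695), striated muscle (0.780, 2.33, 2.97 CPM) and neural sums (58.5, 99.1, 110.2 CPM). Stellate sums did not pass without any 1 age (1391, 1381, 744.1 and 2028 CPM, youngest age first), and entries with a count passed without 6 months (54.3). Leaving out 1 library moved these differences between 0.773 and 1.02 (log2 total), 27.3 and 43.9 (entries with a count), -60.4 and -47.0 (after thinning) and -0.0863 and -0.0507 (unconservative). For sums in CPM the ranges were 1139 to 1586 (stellate), 90.3 to 122.2 (neural), 2.07 to 3.22 (striated muscle), 397.7 to 770.7 (leukocyte) and 44070 to 76780 (hepatocyte).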
